A study of Mus musculus with 48 samples.

Results

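RANKL, OPG and M-CSF are the factors by which osteoblasts and osteocytes govern the formation of osteoclasts, the cells that resorb bone. Their mouse genes are Tnfsf11 (RANKL, Entrez gene 21943, chromosome 14), Tnfrsf11b (OPG, Entrez gene 18383, chromosome 15) and Csf1 (M-CSF, Entrez gene 12977, chromosome 3). They are 3 of the 10739 genes measured above background, and they were taken by name, whatever their values. The bead arrays carry 1 probe annotated to each of them, so no choice between probes was needed.

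The arrays measured RNA of primary calvarial osteoblasts, cells cultured from the mouse skull, from OSMR null mice (KO) and from wild-type mice (WT), both C57BL/6 and from cousin-bred litters. After 17 days in osteoblast differentiation medium the cells received mOSM (murine oncostatin M), hOSM (human oncostatin M) or mLIF (leukaemia inhibitory factor), each at 10 ng/ml, or no ligand (control), for 6 h or 1 h. The 2 genotypes, 4 treatments and 2 times make 16 groups of 3 arrays, 48 in all, on 8 beadchips. KO cells lack the OSM receptor in every treatment, controls included, and both genotypes keep the LIF receptor, through which all 3 ligands can act in mouse cells per the submitters' design text. The LIF is called mouse in the sample titles and human in the treatment protocol. Replicate numbers 1, 2 and 3 of a genotype are called its cultures here. The labels place replicates 1 and 2 on one thawing day and replicate 3 on another, where the design text speaks of 3 occasions. Nothing says that the cultures came from separate animals, so p-values reflect the spread of these samples alone, which may be technical.

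Osmr checked the genotype labels, with a log2 intensity of 7.36 ± 0.74 in KO and 10.68 ± 0.80 in WT arrays (SD, n = 24 each), and no KO array reached the lowest WT array. Its probe was above background in KO cells too, with 6.88 to 8.75 in replicate 3 and 6.28 to 7.77 in replicates 1 and 2. It also moved with treatment at 6 h. Group means were 12.08 with mOSM against 9.93 in WT controls, and 8.01 with hOSM and 8.07 with mLIF against 6.85 in KO controls. Of 9 listed osteoblast markers 7 were on the array. Of these 5, Col1a1, Col1a2, Alpl, Sp7 and Pth1r, were above background on all 48 arrays, and the others on fewer. The cell type label reads osteocyte, and of the defining osteocyte genes Sost and Fgf23 were above background on 0 arrays, Dmp1 on 7 and Phex on 48. Of the lymphocyte markers on the array, genes of another cell type that makes RANKL, 3 were above background on 0 arrays and Cd3e was above it on 2. Median signals of the arrays ran from 116.3 to 169.8 before normalization, and 14231 to 16767 probes per array were above background, meaning a detection p under 0.01 against the negative control probes. In such bulk RNA, fewer cells making a transcript and less of it per cell cannot be told apart.

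RANKL is a member of the TNF family on the surface of osteoblast lineage cells, or shed from it, that binds its receptor RANK on osteoclast precursors and drives them to become osteoclasts. OPG is a secreted decoy receptor that binds RANKL and keeps it from RANK, so the balance of RANKL and OPG is the usual measure of the pro-osteoclast drive of a culture. M-CSF binds the receptor CSF1R on the same precursors and keeps them alive and dividing. Oncostatin M and LIF are cytokines of the IL-6 family, which signal through the shared chain gp130 and STAT3, and OSM is known to raise RANKL in osteoblasts.

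The start regions of Tnfsf11 and Csf1, the 2 genes that rose with mOSM in WT cells at 6 h in the limma model of group means, are shown from RefSeq on the mouse build GRCm38.p6, from 250 bases before to 50 bases after the annotated start, 5′ to 3′ on the minus strand. The windows are chr14:78307994-78308293 and chr3:107760420-107760719. The RefSeq table used held a window for 2 of the 3 genes, and Tnfrsf11b is named only. Capitals mark the letters TATAA and their overlapping match on the other strand in Tnfsf11, at positions -30 and -31 from the start, and an NF-kappaB motif match on the other strand in Csf1 at position -154.
Tnfsf11: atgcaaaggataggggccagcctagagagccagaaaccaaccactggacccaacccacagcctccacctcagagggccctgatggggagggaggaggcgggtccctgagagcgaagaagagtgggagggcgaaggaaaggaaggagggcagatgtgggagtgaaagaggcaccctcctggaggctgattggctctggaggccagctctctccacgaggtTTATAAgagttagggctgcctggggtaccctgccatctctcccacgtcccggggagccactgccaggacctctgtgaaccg
Csf1: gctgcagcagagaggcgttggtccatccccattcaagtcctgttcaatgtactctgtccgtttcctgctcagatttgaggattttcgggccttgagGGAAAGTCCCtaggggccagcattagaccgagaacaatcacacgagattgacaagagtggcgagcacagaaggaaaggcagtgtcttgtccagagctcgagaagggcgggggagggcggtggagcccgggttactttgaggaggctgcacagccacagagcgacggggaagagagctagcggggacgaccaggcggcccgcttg
Searched on both strands of 32851 RefSeq windows of this length, TATAA stood in 24.9% and the NF-kappaB motif in 8.46%. Neither window held the STAT letters TTCNNNGAA, which stood in 8.3% of windows, the AP-1 letters TGANTCA (7.81%) or the CRE letters TGACGTCA (1.79%). A match describes the letters of this window and is not a bound site.

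Tnfsf11 lay higher with every ligand than in untreated cells, by 0.42 to 5.21 on the log2 scale when each ligand array was set against the control of its own culture and time. Its highest level was in WT cells after 6 h of mOSM, where it exceeded the WT controls by 4.74 (2.94 without background correction). At 6 h the mOSM effect on Tnfsf11 was smaller in KO than in WT cells, while for hOSM and mLIF no difference between the genotypes passed the test. The probe was above background on 41 of the 48 arrays. The 7 others were 2 of 3 KO control arrays at 6 h, 2 of 3 at 1 h, 1 of 3 KO mOSM arrays at 1 h and 2 of 3 WT control arrays at 6 h. No fold is therefore given against those controls, and differences from them depend on how the background is treated.

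**Figure D1:**
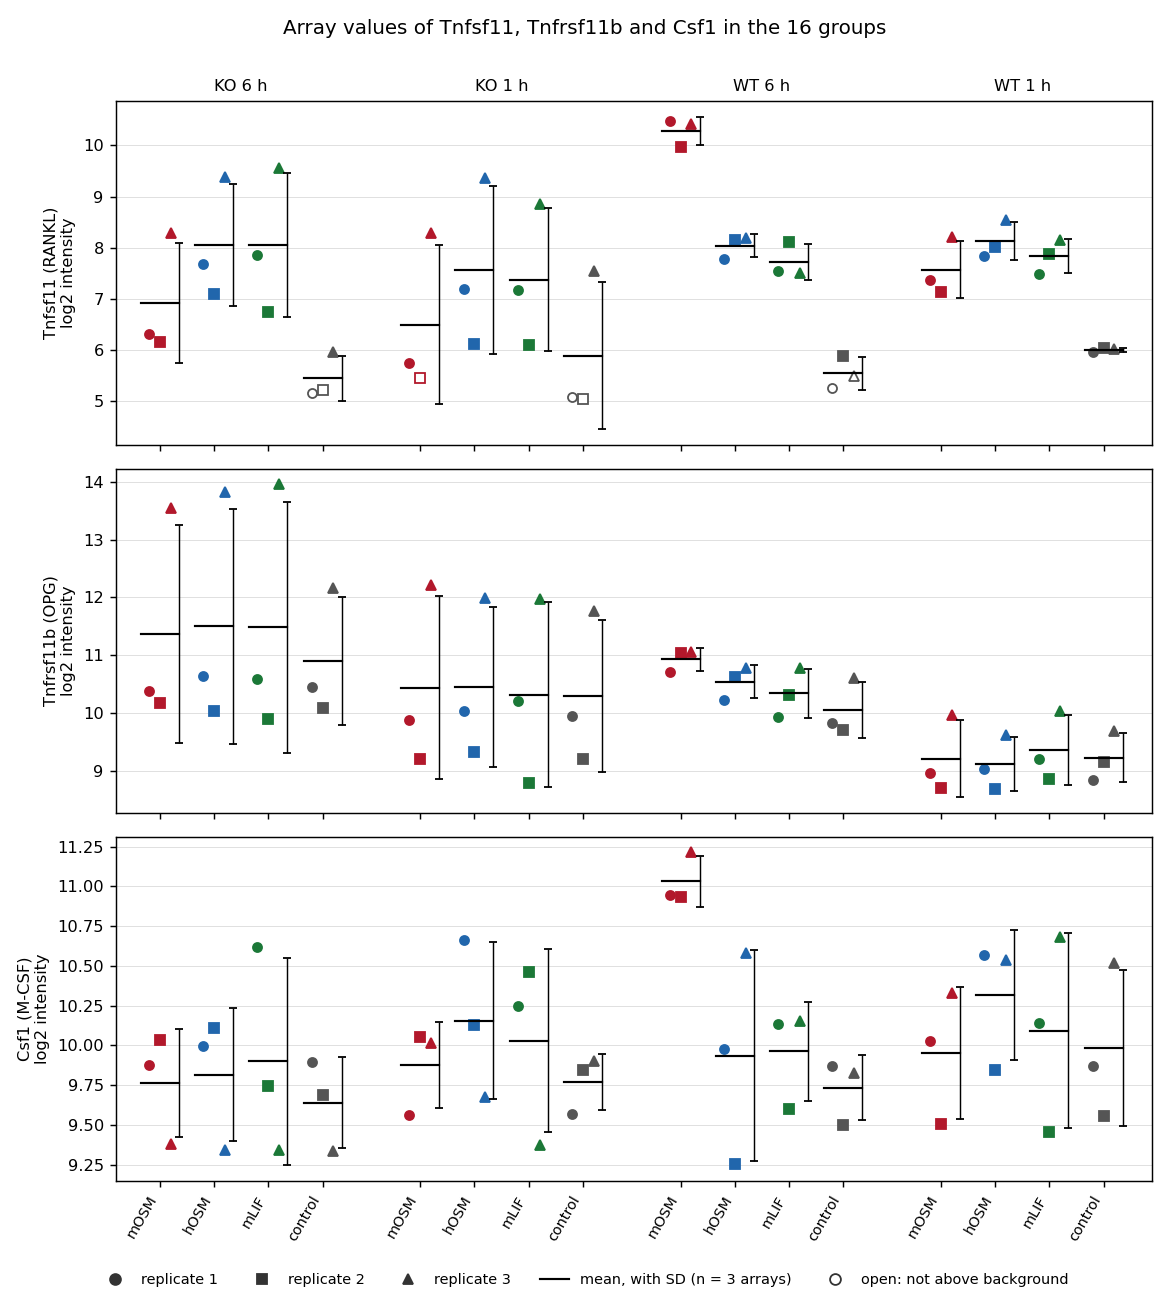
Log2 intensity of Tnfsf11 (top), Tnfrsf11b (middle) and Csf1 (bottom) on each of the 48 arrays, with the groups along the x axis in blocks from left to right KO 6 h, KO 1 h, WT 6 h and WT 1 h. Circles, squares and triangles are replicates 1, 2 and 3, open symbols are Tnfsf11 values not above background, and lines are group means with the SD of 3 arrays. WT mOSM 6 h stands above the other 15 groups for Tnfsf11 (mean 10.28) and for Csf1 (mean 11.03), and the triangle is the highest point of each KO group for Tnfsf11 and Tnfrsf11b.

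In KO cells at 6 h, the log2 intensities of Tnfsf11 in replicates 1, 2 and 3 were 6.32, 6.16 and 8.28 with mOSM, 7.67, 7.09 and 9.39 with hOSM, and 7.86, 6.74 and 9.55 with mLIF, against 5.16, 5.22 and 5.96 in controls. Each ligand group lay above all 3 control arrays, and replicate 3 was the highest of every group. The model of 16 group means (limma, p-values adjusted by Benjamini and Hochberg over all genes, threshold 0.05) gave differences from control of 1.47 for mOSM, 2.60 for hOSM and 2.61 for mLIF, each ± 0.76 (SE), with adjusted p = 1.00, 0.11 and 0.11. Without background correction they were 0.60, 1.24 and 1.27. None passed, in comparisons where 0% of genes passed with mOSM (201 of 10739 had an unadjusted p under 0.05), 0.829% with hOSM and 0.922% with mLIF.

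Differences between cultures made up 86.8% of the variance of Tnfsf11 within groups. Cultures 1, 2 and 3 deviated from their group means by -0.45, -0.98 and 1.43 on average in KO cells, and by -0.18, 0.01 and 0.17 in WT cells. The model of group means pools the spread of both genotypes, so the SE of the WT differences below carries that of the KO cultures. A second limma model with a term for each of the 6 cultures (the replicate block) left the ligand differences as they were and lowered their SE to 0.29. With it the adjusted p in KO cells at 6 h was 0.046 for mOSM, 1.7e-07 for hOSM and 1.5e-07 for mLIF, so Tnfsf11 rose with each. It was 1 of 4 genes (0.0372%) that passed with mOSM, the others being Socs3 (1.76), Bcl3 (1.83) and Chil1 (1.21), named after their values were seen. With hOSM 3.67% and with mLIF 4.04% of genes rose in that model. Culture 3 of the KO cells stood apart from the other 5 cultures (its values are given with Tnfrsf11b). Without all 8 of its arrays, the model of group means gave 2.19 for hOSM and 2.11 for mLIF, which then passed (adjusted p = 0.0024 and 0.0038), and 1.05 for mOSM, which did not (adjusted p = 1.00).

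After 1 h in KO cells, Tnfsf11 measured 5.74, 5.45 and 8.29 with mOSM, 7.20, 6.12 and 9.35 with hOSM, and 7.17, 6.09 and 8.86 with mLIF, against 5.07, 5.04 and 7.55 in controls. Each ligand group overlapped the controls, whose replicate 3 was well above the other 2. The differences were 0.61 for mOSM, 1.67 for hOSM and 1.49 for mLIF (SE 0.76, adjusted p = 1.00 for each in the limma model of group means, where 0.4% of genes passed with hOSM and 0.428% with mLIF). Without background correction they were 0.25, 0.79 and 0.65. The hOSM and mLIF differences passed once the culture term was added (adjusted p = 0.0005 and 0.0027), where 0.968% and 1.04% of genes rose, and mOSM did not (adjusted p = 1.00). With mOSM, Socs3, the feedback inhibitor of STAT3 signalling, was the only gene to pass in KO cells at 1 h (2.52, adjusted p = 0.00011, 0.00931% of genes). Without KO culture 3, the 1 h differences of Tnfsf11 were 1.60 for hOSM and 1.57 for mLIF (adjusted p = 0.054 and 0.066).

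WT cells at 6 h had Tnfsf11 values of 10.47, 9.96 and 10.42 with mOSM, 7.77, 8.16 and 8.19 with hOSM, and 7.55, 8.12 and 7.49 with mLIF, against 5.26, 5.89 and 5.48 in controls. The 3 mOSM arrays were the highest of all 48, and the hOSM and mLIF arrays of WT cells at 6 h lay between them and the controls. Tnfsf11 rose by 4.74 ± 0.76 with mOSM (SE, 95% interval 3.19 to 6.29, limma adjusted p = 1.1e-05), in a comparison where 27.5% of genes passed and 11.9% rose. By size of the rise it ranked 9 of 10739. As deposited, on the linear scale and before any correction, its signals were 1219, 1060 and 1497 with mOSM, against 183, 144 and 171 in controls, where the medians of all arrays were 116.3 to 169.8. Raising the control arrays that were not above background to the lowest intensity that was gave 4.57, and no background correction gave 2.94 (adjusted p = 3.1e-06).

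For hOSM and mLIF the WT differences at 6 h were 2.50 and 2.17 (1.14 and 0.94 without background correction), with adjusted p = 0.17 and 0.33 in the limma model of group means, where 0.661% and 0.466% of genes passed. Both passed with the culture term (adjusted p = 4.5e-07 and 4.4e-06), where 2.96% and 2.87% of genes rose. Within the 3 KO cultures the hOSM difference at 6 h ran from 1.86 to 3.43 and the mLIF difference from 1.52 to 3.59. Within the 3 WT cultures they ran from 2.27 to 2.70 and from 2.01 to 2.28.

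After 1 h in WT cells, Tnfsf11 measured 7.36, 7.14 and 8.21 with mOSM, 7.84, 8.02 and 8.54 with hOSM, and 7.48, 7.88 and 8.15 with mLIF, against 5.96, 6.03 and 6.02 in controls. All 9 ligand arrays lay above the 3 controls, and the 3 ligands overlapped each other. The differences were 1.56 with mOSM, 2.13 with hOSM and 1.83 with mLIF (adjusted p = 1.00, 0.60 and 0.82, where 0.745%, 0.466% and 0.624% of genes passed). Without background correction they were 0.73, 1.08 and 0.88. Each passed with the culture term (adjusted p = 0.00089, 1.1e-05 and 0.00012), where 1.41%, 1.22% and 1.44% of genes rose. Within each genotype and time the 3 ligands share their control arrays, so their differences from control are not independent.

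**Figure D2:**
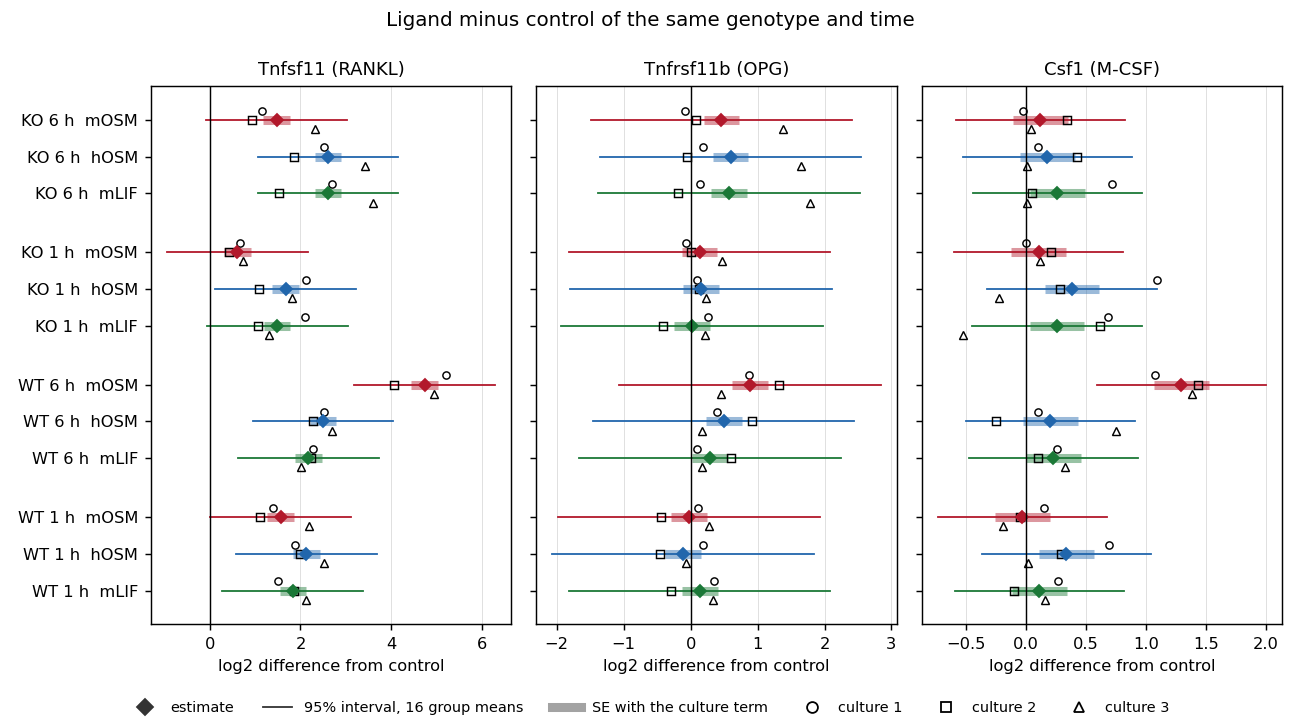
Log2 difference of each ligand from the control of its genotype and time (x axis) for Tnfsf11, Tnfrsf11b and Csf1, with the 12 comparisons down the page. Diamonds are the estimates, thin lines their 95% intervals in the model of 16 group means, thick bars the SE with the culture term, and open symbols the difference within each of the 3 cultures. For Tnfsf11 all open symbols lie above 0 and mOSM in WT cells at 6 h (4.74) is the farthest right, while for Csf1 it is the only one (1.30) whose interval lies wholly above 0.

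Whether the mOSM effect needs the OSM receptor is asked by the difference between the genotypes. At 6 h the mOSM effect on Tnfsf11 was 1.47 in KO and 4.74 in WT cells, a difference of -3.27 ± 1.08 (SE, 95% interval -5.46 to -1.07, limma adjusted p = 0.0489), in a comparison where 9.7% of genes passed and 4.32% were lower. The call is at the edge of the threshold. Of the 12 arrays involved, leaving out KO mOSM replicate 3 kept it (adjusted p = 0.020), and leaving out any one of the 11 others ended it (adjusted p = 0.0616 to 0.127, differences of -3.44 to -2.89). With the culture term the adjusted p was 3.5e-07, where 9.94% of genes were lower, and without KO culture 3 the difference was -3.69 (adjusted p = 1.2e-05). At 1 h the difference was -0.96 (adjusted p = 1.00, and 0.84 with the culture term). For hOSM the KO minus WT differences were 0.11 at 6 h (95% interval -2.09 to 2.30) and -0.46 at 1 h, and for mLIF 0.43 at 6 h (-1.76 to 2.63) and -0.34 at 1 h. None of these 4 passed, and both 6 h intervals reach past 2 log2 units.

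The ligands were then set against each other. In KO cells mOSM minus the mean of hOSM and mLIF was -1.13 ± 0.66 (SE) at 6 h and -0.97 at 1 h for Tnfsf11 (-0.65 and -0.47 without background correction), with limma adjusted p = 1.00 for both (0.447% of genes passed at 6 h). The 6 h value passed with the culture term, so Tnfsf11 was lower with mOSM (adjusted p = 0.0066, where 2.21% of genes were lower), and the 1 h value did not (adjusted p = 0.059). In WT cells at 6 h mOSM exceeded that mean by 2.40 ± 0.66 (SE, 5.29-fold, adjusted p = 0.0074), where 21.2% of genes passed and 8.86% were higher. At 1 h in WT cells the difference was -0.42 (adjusted p = 1.00). Between hOSM and mLIF, which the design text describes as LIF receptor ligands only, the differences in Tnfsf11 were -0.00 in KO cells at 6 h (95% interval -1.55 to 1.55), 0.19 in KO cells at 1 h, 0.32 in WT cells at 6 h (-1.23 to 1.87) and 0.30 in WT cells at 1 h. None passed, and 0% of all genes did in any of these 4 comparisons in either limma model, with 111, 63, 114 and 271 genes at an unadjusted p under 0.05 in the model of group means.

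In WT cells the effect of mOSM was larger at the later time. The mOSM effect on Tnfsf11 in WT cells was 4.74 at 6 h and 1.56 at 1 h, a gain of 3.18 ± 1.08 (SE, 95% interval 0.98 to 5.37, limma adjusted p = 0.046), in a comparison where 13% of genes passed and 5.54% were higher. Leaving out WT mOSM 1 h replicate 3 kept that call (adjusted p = 0.038), and leaving out any one of the 11 other arrays ended it (adjusted p = 0.057 to 0.102). With the culture term the adjusted p was 4.5e-07, where 11.5% of genes were higher. In KO cells the gain was 0.87 and did not pass. For the mean of hOSM and mLIF the gain was 1.03 in KO and 0.36 in WT cells (adjusted p = 1.00 for both, and 0.13 and 0.77 with the culture term). In untreated cells the 6 h minus 1 h difference of Tnfsf11 was -0.44 in KO and -0.46 in WT cells, and the KO minus WT difference was -0.10 at 6 h and -0.12 at 1 h. None of these passed.

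Tnfrsf11b, the decoy receptor, passed with no ligand in the limma model of group means, and its widest spread was between cultures. It was above background on all 48 arrays. In KO cells at 6 h its log2 intensities in replicates 1, 2 and 3 were 10.38, 10.17 and 13.54 with mOSM, 10.64, 10.04 and 13.82 with hOSM, and 10.60, 9.90 and 13.95 with mLIF, against 10.46, 10.09 and 12.16 in controls. Replicate 3 was the highest in each group, and each ligand group overlapped the controls. The differences were 0.46, 0.60 and 0.58, each ± 0.96 (SE), and none passed in either limma model. Within culture 3 they were 1.37 for mOSM, 1.66 for hOSM and 1.79 for mLIF, where cultures 1 and 2 lay between -0.19 and 0.18. With 1 such culture there is no test of that.

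WT cells at 6 h had Tnfrsf11b values of 10.71, 11.04 and 11.06 with mOSM, 10.23, 10.63 and 10.78 with hOSM, and 9.93, 10.31 and 10.78 with mLIF, against 9.83, 9.72 and 10.60 in controls. The mOSM arrays lay above all controls and the other 2 ligands overlapped them. The mOSM difference was 0.88 ± 0.96 (SE, 95% interval -1.07 to 2.84, adjusted p = 0.55) in the limma model of group means. It passed with the culture term (adjusted p = 0.0074), where 17.7% of genes rose, and with only the 6 arrays compared (adjusted p = 0.038). Within cultures it ran from 0.45 to 1.32. For hOSM it was 0.49 and for mLIF 0.29, and neither passed in either model. The KO minus WT difference of the mOSM effect was -0.42 (95% interval -3.19 to 2.34), so an equal effect in both genotypes and a large difference both lie within the error.

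At 1 h the ligand differences of Tnfrsf11b lay between 0.02 and 0.15 in KO cells and between -0.11 and 0.13 in WT cells, and none passed. Its arrays measured 9.88, 9.21 and 12.22 with mOSM, 10.04, 9.33 and 11.99 with hOSM and 10.21, 8.79 and 11.97 with mLIF in KO cells, against 9.95, 9.20 and 11.76 in KO controls. They measured 8.96, 8.71 and 9.96 with mOSM, 9.04, 8.70 and 9.63 with hOSM and 9.20, 8.86 and 10.03 with mLIF in WT cells, against 8.85, 9.15 and 9.70 in WT controls. Every ligand group overlapped its controls, and replicate 3 was the highest array in each of the 8 groups. Untreated WT cells had 9.83, 9.72 and 10.60 at 6 h, against 8.85, 9.15 and 9.70 at 1 h, without overlap. The difference of 0.82 did not pass (adjusted p = 1.00, and 0.15 with the culture term), nor did the 0.60 in KO cells, in comparisons where 0.428% of genes in WT and 0.279% in KO cells passed. The KO minus WT differences of untreated cells were 0.85 at 6 h and 1.07 at 1 h, which did not pass (adjusted p = 1.00 for both, where 0.0279% and 0.0186% of genes passed).

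The culture means show where that spread lay. Over its 8 arrays, Tnfrsf11b averaged 10.27, 9.59 and 12.68 in KO cultures 1, 2 and 3, against 9.59, 9.64 and 10.32 in WT cultures. KO culture 3 was the highest of the 6. The KO minus WT difference of culture means was 1.00 (exact two-sided permutation test over 3 against 3 cultures, p = 0.7), and 0.08 without KO culture 3. Differences between cultures made up 93.1% of the variance of Tnfrsf11b within groups, against 86.8% for Tnfsf11 and 61.0% for Csf1. In KO culture 3 the summed level of 6 adipocyte markers was 10.52 on the log2 scale, against 13.62 to 14.78 in the 5 other cultures, and that of 2 muscle markers was 6.48, against 7.16 to 8.86. That of 4 chondrocyte markers was the highest at 14.99, against 14.16 to 14.78. Its summed levels of 4 osteocyte markers (13.35, against 13.39 to 13.75) and of 2 endothelial markers (7.23, against 7.25 to 9.22) were the lowest, and those of the osteoblast markers and of the macrophage and osteoclast markers lay within the range of the others. Their part in the level of Tnfrsf11b was not tested, and the culture, its thawing day and its cell composition cannot be told apart within KO cells.

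**Figure D3:**
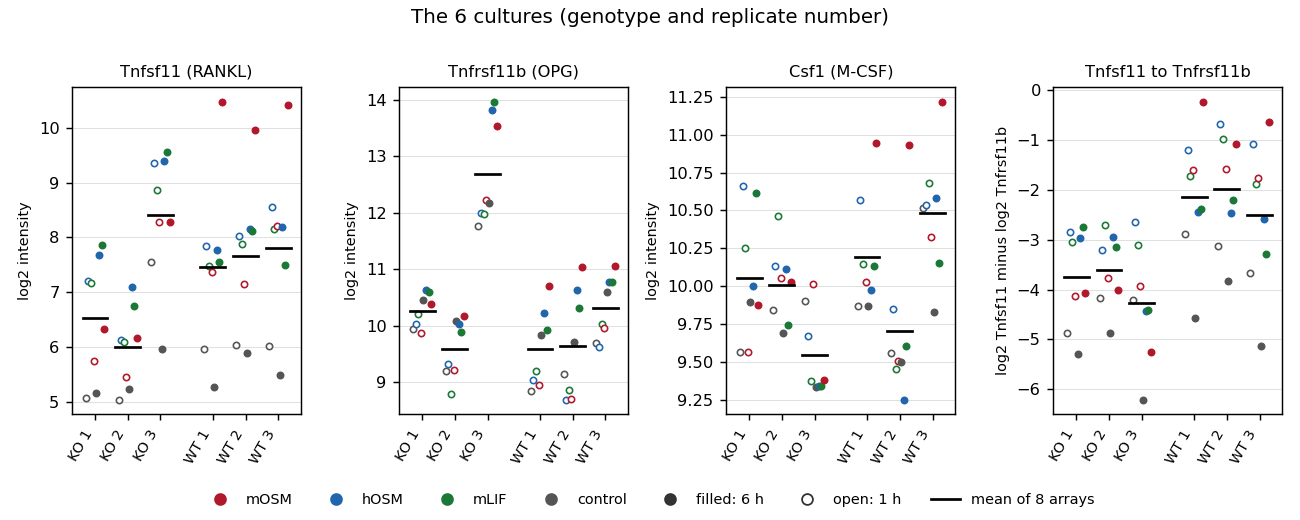
Log2 intensity of the 3 genes, and log2 Tnfsf11 minus log2 Tnfrsf11b, in each of the 6 cultures (x axis, KO 1 to 3 left of WT 1 to 3), 8 arrays per culture. Colours are ligands, filled symbols 6 h, open symbols 1 h, and lines the mean of the 8 arrays. KO culture 3 has the highest mean of Tnfsf11 (8.40) and Tnfrsf11b (12.68) and the lowest of Csf1 (9.55), while for the difference between the 2 genes all KO culture means (-4.27 to -3.60) lie below all WT culture means (-2.50 to -1.99).

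Csf1 rose with mOSM in WT cells at 6 h and passed against control with no other ligand, time or genotype in either limma model. It was above background on all 48 arrays, and its groups spanned only 1.39 on the log2 scale, against 4.84 for Tnfsf11. Its log2 intensities in KO cells at 6 h were 9.87, 10.03 and 9.38 with mOSM, 10.00, 10.11 and 9.34 with hOSM, and 10.62, 9.74 and 9.34 with mLIF, against 9.90, 9.69 and 9.34 in controls. Every ligand group overlapped the controls, with differences of 0.12, 0.18 and 0.26 (SE 0.35), which did not pass. WT cells at 6 h had 10.95, 10.93 and 11.21 with mOSM, 9.98, 9.25 and 10.58 with hOSM, and 10.13, 9.60 and 10.15 with mLIF, against 9.87, 9.50 and 9.83 in controls. The 3 mOSM arrays lay above every other array of the series. The rise with mOSM was 1.30 ± 0.35 (SE, 95% interval 0.59 to 2.00, 2.46-fold, limma adjusted p = 0.0045) and ran from 1.07 to 1.43 within the cultures. By size this rise ranked 426 of 10739, in a comparison where 27.5% of genes passed and 11.9% rose. The differences for hOSM and mLIF were 0.20 and 0.23 and did not pass.

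Against the mean of hOSM and mLIF, mOSM raised Csf1 in WT cells at 6 h by 1.08 ± 0.30 (SE, 2.12-fold, limma adjusted p = 0.0079). There 21.2% of genes passed and 8.86% were higher. Without WT mOSM replicate 3 the Csf1 difference was 0.99, just short of the threshold (adjusted p = 0.051). The mOSM effect on Csf1 was 0.12 in KO and 1.30 in WT cells, a difference of -1.17 ± 0.49 (SE, 95% interval -2.17 to -0.18), which did not pass in the model of group means (adjusted p = 0.14). It passed with the culture term (adjusted p = 0.0065), where 9.94% of genes were lower, and with only the 12 arrays compared (adjusted p = 0.035). The gain of the mOSM effect in WT cells at 6 h over 1 h was 1.32 ± 0.49 (SE, adjusted p = 0.072), where 13% of genes passed. It passed with the culture term (0.0019), where 11.5% of genes were higher, and with only the arrays compared (0.033). It also passed without WT control 1 h replicate 2 (1.54, adjusted p = 0.046) or WT mOSM 1 h replicate 3 (1.51, adjusted p = 0.048). After 1 h, Csf1 measured 9.56, 10.05 and 10.01 with mOSM, 10.66, 10.13 and 9.67 with hOSM and 10.25, 10.46 and 9.38 with mLIF in KO cells, against 9.57, 9.84 and 9.90 in KO controls. In WT cells it measured 10.03, 9.51 and 10.33 with mOSM, 10.57, 9.85 and 10.54 with hOSM and 10.14, 9.45 and 10.68 with mLIF, against 9.87, 9.56 and 10.52 in WT controls. Every ligand group overlapped its controls. The mOSM, hOSM and mLIF differences were 0.11, 0.38 and 0.26 in KO and -0.03, 0.34 and 0.11 in WT cells. None passed in either model.

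The log2 difference Tnfsf11 minus Tnfrsf11b on each array is a balance of ligand and decoy receptor. The 2 probes need not report equal amounts equally, so only its differences between groups are read. For KO cells at 6 h it was -4.07, -4.01 and -5.26 with mOSM, -2.96, -2.95 and -4.43 with hOSM, and -2.74, -3.15 and -4.40 with mLIF, against -5.30, -4.87 and -6.21 in controls. The mOSM arrays overlapped the controls and those of the other 2 ligands did not. The mean differences were 1.01 ± 0.57 (SE) for mOSM, 2.01 for hOSM and 2.03 for mLIF, with p = 0.2, 0.1 and 0.1 by an exact two-sided permutation test. Without background correction they were 0.15, 0.66 and 0.70. That test takes no account of the cultures, and for 3 arrays against 3 its smallest p is 0.1, so it cannot pass 0.05. Taken within each KO culture, the differences were 0.86 to 1.23 for mOSM (SD 0.20), 1.78 to 2.34 for hOSM (SD 0.29) and 1.72 to 2.56 for mLIF (SD 0.47), above 0 in 3 of 3 cultures for each ligand.

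For WT cells at 6 h the balance was -0.24, -1.08 and -0.64 with mOSM, -2.45, -2.47 and -2.59 with hOSM, and -2.39, -2.20 and -3.28 with mLIF, against -4.57, -3.83 and -5.12 in controls. The mOSM arrays were the highest, and all 3 ligands lay above the controls. The mean differences were 3.86 ± 0.45 (SE) for mOSM, 2.00 for hOSM and 1.88 for mLIF, each with an exact permutation p = 0.1. Without background correction they were 2.14, 0.70 and 0.68. Behind the mOSM value stand a difference of 4.74 in Tnfsf11 and one of 0.88 in Tnfrsf11b. Within the WT cultures the differences were 2.75 to 4.49 for mOSM (SD 0.96), 1.36 to 2.53 for hOSM (SD 0.60) and 1.63 to 2.18 for mLIF (SD 0.28).

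At 1 h the balance in KO cells was -4.14, -3.76 and -3.93 with mOSM, -2.84, -3.21 and -2.64 with hOSM and -3.04, -2.70 and -3.11 with mLIF, against -4.88, -4.16 and -4.21 in controls. In WT cells it was -1.60, -1.57 and -1.76 with mOSM, -1.20, -0.68 and -1.08 with hOSM and -1.73, -0.98 and -1.88 with mLIF, against -2.89, -3.12 and -3.67 in controls. Replicate 3 of the KO cells, the highest in Tnfsf11 and Tnfrsf11b, was here the highest of its group with hOSM, the lowest with mLIF and between the other replicates with mOSM and in controls. The differences in KO cells were 0.47 for mOSM, 1.52 for hOSM and 1.47 for mLIF (0.12, 0.65 and 0.61 without background correction). In WT cells they were 1.58, 2.24 and 1.70 (0.74, 1.16 and 0.77 without background correction). No ligand group overlapped its controls, and each exact permutation p was 0.1. In both genotypes the mOSM mean at 1 h was the lowest of the 3 ligands. At 6 h in WT cells it was the highest.

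The culture means of the balance were -3.74, -3.60 and -4.27 in KO cultures, against -2.13, -1.99 and -2.50 in WT cultures, without overlap. The KO minus WT difference was -1.66 ± 0.26 (SE, n = 3 cultures each, exact two-sided permutation p = 0.1, the smallest that 3 against 3 can give), and -1.46 without KO culture 3. Each culture mean here, also of the single genes, pools control and ligand arrays, so it is not a level of untreated cells. In controls the group means of the balance were -5.46 in KO and -4.51 in WT cells at 6 h, and -4.42 and -3.23 at 1 h. Tnfsf11 was above background on 1 of 3 arrays in KO controls at each time and in WT controls at 6 h. The balance of those controls therefore depends on how the background is treated. Between untreated KO and WT cells Tnfrsf11b differed by 0.85 at 6 h and 1.07 at 1 h, and Tnfsf11 by -0.10 and -0.12. None of these passed. With mOSM the group means of the balance were -4.44 in KO and -0.65 in WT cells at 6 h, and -3.94 and -1.64 at 1 h. For the single genes the culture means overlapped. Tnfsf11 averaged 6.52, 5.99 and 8.40 in KO and 7.46, 7.65 and 7.81 in WT cultures, a difference of -0.67 (exact permutation p = 0.4, and -1.38 without KO culture 3). Csf1 averaged 10.05, 10.01 and 9.55 in KO and 10.19, 9.71 and 10.48 in WT cultures, a difference of -0.26 (exact permutation p = 0.4, and -0.10 without KO culture 3).

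**Figure D4:**
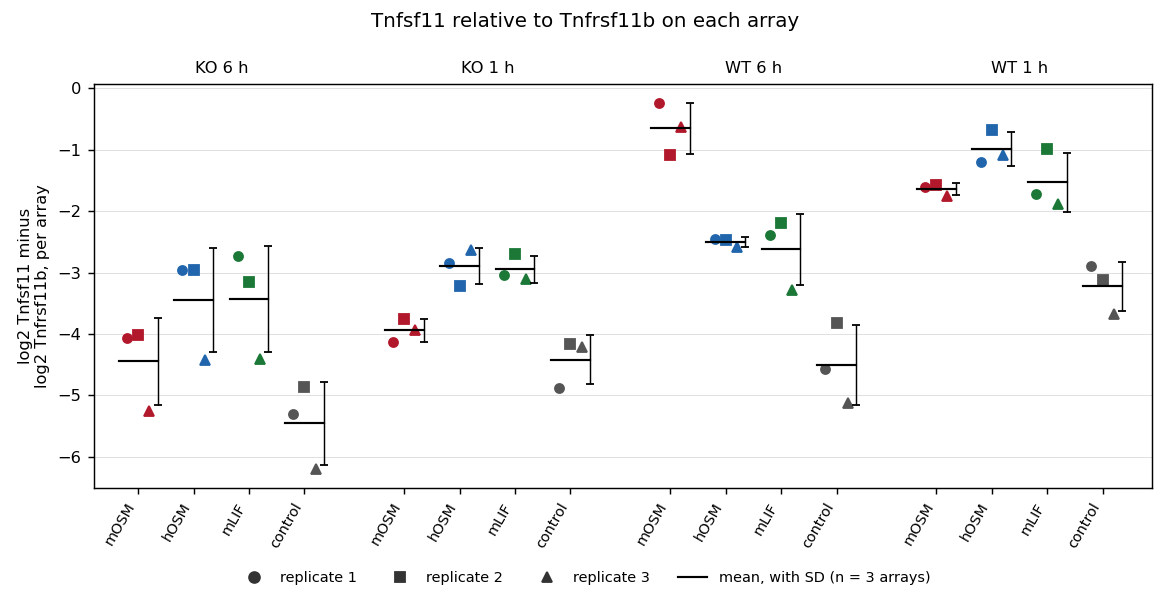
Log2 Tnfsf11 minus log2 Tnfrsf11b on each of the 48 arrays (y axis, log2 units), with the groups along the x axis in blocks from left to right KO 6 h, KO 1 h, WT 6 h and WT 1 h. Symbols are the 3 replicates and lines the group means with the SD of 3 arrays. Tnfsf11 was above background on 41 of the 48 arrays, and most of the others are controls. WT mOSM 6 h is the highest group (mean -0.65) and KO control 6 h the lowest (mean -5.46), and each KO group mean lies below the WT group mean of the same treatment and time, while single arrays overlap for controls and mLIF at 6 h.

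Ordered by group mean, Tnfsf11 was highest in WT cells with mOSM at 6 h (10.28) and lowest in KO controls at 6 h (5.45). Of the 15 steps between neighbours in that order 1 was larger than the SD of both groups, the step of 2.15 from WT mOSM 6 h down to WT hOSM 1 h (8.13). Csf1 had its 1 such step in the same place, 0.71 below WT mOSM 6 h, and its lowest mean was 9.64 in KO controls at 6 h. Tnfrsf11b had 1 such step, of 0.69, between WT controls at 6 h and WT mLIF at 1 h, with its highest mean in KO hOSM 6 h (11.50) and its lowest in WT hOSM 1 h (9.12). The balance had 4 such steps of 15.

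Among all genes kept, those whose 16 group means followed Tnfsf11 most closely by Pearson's r were Gch1 (0.972), which encodes the first enzyme of tetrahydrobiopterin synthesis, Sod2 (0.964), the mitochondrial superoxide dismutase, Litaf (0.956), Bcl3 (0.954), an NF-kappaB cofactor, and Stat2 (0.948). For Tnfrsf11b they were Ddah1 (0.957), Irx1 (0.955), Trim39 (0.955), Dpysl3 (0.946) and Steap3 (0.943). For Csf1 they were Smim3 (0.961), Rell1 (0.953), Pkig (0.951), Tgif1 (0.947) and Ptpn12 (0.947). Among the 3 genes themselves r was 0.80 for Tnfsf11 and Csf1, 0.16 for Tnfsf11 and Tnfrsf11b and -0.13 for Tnfrsf11b and Csf1. These are descriptions over 16 means that share arrays, cultures and normalization, and the means of Tnfrsf11b carry the level of KO culture 3. WT mOSM 6 h stood 2.15 (Tnfsf11) and 0.71 (Csf1) above the next group mean, so that group weighs heavily in the r of these genes.

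Other factors by which osteoblasts act on osteoclasts were counted from a list of 40 genes, 31 of which were kept. With mOSM in KO cells none passed in either limma model at 6 h (1 at an unadjusted p under 0.05) or at 1 h (0). With hOSM and mLIF in KO cells at 6 h 1 rose, Ccl7 (2.76 and 2.77), where 0.829% and 0.922% of all genes passed. With the culture term 7 rose and 3 fell with hOSM and 7 rose and 2 fell with mLIF, where 3.67% and 4.04% of all genes rose. At 1 h Ccl2, Ccl7 and Il6 rose with each of the 2, where 0.4% and 0.428% of all genes passed.

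With mOSM in WT cells at 6 h 8 of the 31 rose and 4 fell, where 27.5% of all genes passed and 11.9% rose, with a list median of 0.16 against -0.08 for all genes. With the culture term 11 rose and 9 fell, where 4858 of the 10739 genes passed and 17.7% rose. In the model of group means the largest rises were Ccl2 (5.54 ± 0.57, SE, limma adjusted p = 3.5e-09) and Ccl7 (5.12), chemokines that draw monocytes, Il6 (3.20), a cytokine of the same gp130 family, and Ccl8 (2.90). The 4 that fell in it, named after their values were seen, were Il34, the second ligand of the M-CSF receptor (-1.51 ± 0.26, SE, adjusted p = 3.3e-05), Sema3a, a restraint on osteoclast formation (-1.50, adjusted p = 0.00015), Il15 (-1.31) and Wnt5a (-0.74, adjusted p = 0.049). At 6 h of mOSM in WT cells the 2 ligands of CSF1R differed in sign, Csf1 at 1.30 and Il34 at -1.51. With hOSM at 6 h in WT cells 1 gene passed, Ccl7 (2.58), and with mLIF none did (4 at an unadjusted p under 0.05), where 0.661% and 0.466% of all genes passed. With the culture term 6 rose and 1 fell with hOSM, and 4 rose and 2 fell with mLIF, where 2.96% and 2.87% of all genes rose. At 1 h in WT cells Ccl2, Ccl7 and Il6 rose with each ligand, where 0.745% of all genes passed with mOSM, 0.466% with hOSM and 0.624% with mLIF. For the mOSM effect at 6 h, the KO minus WT difference was negative and passed for 4 of the 31, Ccl2 (-5.27), Ccl7 (-4.06), Il6 (-3.13) and Ptges (-1.81), a prostaglandin E synthase, and was positive and passed for 2, where 9.7% of all genes passed and 4.32% were lower. With the culture term 7 were lower and 3 higher, where 9.94% of all genes were lower.

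A list of 45 genes placed upstream of the 3 genes, among them receptors, transcription factors and the feedback inhibitor Socs3, had 35 kept. With 6 h of ligand in KO cells none of them passed with mOSM (3 at an unadjusted p under 0.05), 3 rose with hOSM and 5 with mLIF, where 0%, 0.829% and 0.922% of all genes passed. With the culture term 0.0372% of all genes passed with mOSM, and 3.67% rose with hOSM and 4.04% with mLIF. Of the list 1, 10 and 11 rose in that fit. Among those with hOSM and mLIF were Socs3 (3.19 and 3.18) and Junb (2.16 and 2.36), a subunit of AP-1. At 1 h in KO cells 1 rose with mOSM, Socs3, with 2 for hOSM and 3 for mLIF, where 0.00931%, 0.4% and 0.428% of all genes passed. With the culture term 1, 5 and 5 rose, where 1 gene in all passed with mOSM. In that model 0.968% of all genes rose with hOSM and 1.04% with mLIF.

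At 6 h in WT cells 17 of the 35 rose and 2 fell with mOSM, where 27.5% of all genes passed and 11.9% rose, with a list median of 0.65 against -0.08 for all genes. With the culture term 18 rose and 6 fell, where 4858 of the 10739 genes passed and 17.7% rose. The largest were Socs3 (4.97), Junb (3.49), Fos (2.52) and, falling, Ebf2 (-2.53, adjusted p = 0.0072), a factor known in mouse osteoblasts for raising Tnfrsf11b. With hOSM and with mLIF 3 rose at 6 h in WT cells, Socs3, Junb and Il6st, which encodes gp130, where 0.661% and 0.466% of all genes passed. With the culture term 10 rose and 1 fell with hOSM, and 9 rose and 1 fell with mLIF, where 2.96% and 2.87% of all genes rose. The KO minus WT difference of the mOSM effect at 6 h passed for 5 of the 35 in the limma model of group means, all negative, among them Socs3 (-3.21), Junb (-2.55), Il6st (-2.26) and Egr1 (-1.96), where 9.7% of all genes passed and 4.32% were lower. Adding the culture term gave 14 lower and 3 higher, where 9.94% of all genes were lower. Untreated cells differed between the times as well. At 6 h against 1 h, 4 of the 35 were lower in WT controls, Fos (-4.34), Junb (-3.40), Egr1 (-2.65) and Socs3 (-2.10). In KO controls 3 were lower, Fos (-3.08), Junb (-2.69) and Egr1 (-2.09), where 0.428% and 0.279% of all genes passed in WT and KO cells. The ligand effects at 1 h and 6 h are thus measured against controls that differ in these genes.

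The genes by which osteoclast precursors receive these factors, a list of 12 with 10 kept, gave 0 calls in each of the 12 ligand comparisons in the limma model of group means, where 1 had an unadjusted p under 0.05, with mOSM in KO cells at 6 h. In these comparisons between 0% (mOSM, KO cells, 6 h) and 27.5% (mOSM, WT cells, 6 h) of all genes passed, and under 1% in each but the last. With the culture term 1 fell, with mOSM in WT cells at 6 h, where 4858 of the 10739 genes passed. Tnfrsf11a, which encodes RANK, was above background on 8 arrays, and Csf1r on 45. Of the osteoclast markers Acp5, Calcr, Ocstamp, Dcstamp and Atp6v0d2 were above background on 0 arrays. The whole list of macrophage and osteoclast markers had 14 on the array, of which 8 were kept and 2 were above background on all 48 arrays. The summed log2 level of these 8 averaged 12.94, 13.15 and 13.22 in KO cultures 1, 2 and 3, against 13.59, 13.22 and 12.87 in WT cultures. That sum follows the brightest markers most. Over all arrays, KO against WT in the limma model of group means, 5 of these 8 were lower and 1 higher (median -0.99). Of the 10 kept receiving genes 6 were lower and 2 higher (median -0.89, against 0.01 for all genes). At an unadjusted p under 0.05 were 6 of the 8, 8 of the 10 and 3498 of all 10739 genes. That comparison takes no account of the cultures.

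Cell type markers moved with mOSM in WT cells at 6 h, where Tnfsf11 and Csf1 rose. There 27.5% of all genes passed, and 4858 of the 10739 did with the culture term. The summed log2 level of 4 osteocyte markers was 14.08 to 14.20 with mOSM, against 13.20 to 13.34 in controls. Among these Pdpn rose (0.91, limma adjusted p = 0.0012), and with the culture term 1 rose and 1 fell. The levels of 2 endothelial and 2 muscle markers overlapped the controls. The summed log2 level of 6 adipocyte markers was 12.66 to 13.95 with mOSM, against 14.04 to 14.96 in controls, and 1 of the 6 fell, Pparg (-2.44), or 5 with the culture term. That of 4 chondrocyte markers was 13.73 to 14.43, against 14.38 to 14.98 in controls, and Sox9 fell (-1.42). That of 7 osteoblast markers was 14.55 to 15.15, against 14.90 to 15.47 in controls, and Sp7 fell (-2.62), or 5 of 7 with the culture term. That of 8 macrophage and osteoclast markers was 12.76 to 13.44, against 12.83 to 13.58 in controls, and Cd14 rose (1.56). Their part in the values of Tnfsf11 and Csf1 was not tested.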

How the data were processed

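The deposited signal file holds bead intensities per probe on the linear scale and before any normalization, exported by the authors with BeadStudio per the submitters' processing notes, which also name limma. It also gives the detection p-value of each probe, as deposited. A second deposited table holds the authors' normalized log2 values. Genome build and settings are not given in the sources used here. Of 46255 lines 18 repeat an earlier probe.

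The intensities were background corrected with neqc of limma 3.58.1 in R 4.3.3 (offset 16, with the negative controls taken from the detection p-values), then quantile normalized and converted to log2, within 0.0338 of the deposited log2 values. A probe was kept where at least 3 arrays gave it a detection p under 0.01, with the brightest annotated probe per gene, through the platform annotation. Files were read in R through jsonlite (2.0.0) and data.table (1.17.8). A model of 16 group means over 48 arrays was fitted with limma (32 residual degrees of freedom), with Benjamini-Hochberg adjustment over 10739 genes within each comparison and a threshold of 0.05. The script was tested on simulated data with known changes. Precision is limited by having 3 arrays in a group.

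Arrays of one genotype and replicate number deviated from their group means together (mean r 0.659, lowest 0.302, over 168 pairs), while arrays of the same number across genotypes did not (-0.001). Arrays of one genotype with other numbers gave -0.303, a negative value that follows from centring each group on its mean. So the numbers, which come from the sample titles, pair arrays within a genotype, and a culture term (28 residual degrees of freedom) is given where it changes a call. Alternatives were the deposited log2 values, median scaling, no background correction, no filter or a filter of 24 arrays, the beadchip as a random block, only the compared groups, and leaving out each array. The members and the gene lists were chosen with earlier results of these data known. Genes named are the 3 members, Osmr, the 5 genes closest to each member by Pearson's r over group means, and per list and comparison up to 4 with the largest differences among those that passed.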

Additional observations from a re-analysis of the deposited data

Results flagged for a closer look

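The mOSM effect on Tnfsf11 at 6 h differed between the genotypes by a test of the difference itself, at -3.27 on the log2 scale for KO minus WT (limma adjusted p = 0.0489). The effect was above 0 in 3 of 3 KO and 3 of 3 WT cultures. The mOSM effect on Tnfsf11 in WT cells also differed between the times by such a test, at 3.18 for 6 h minus 1 h (limma adjusted p = 0.046). Both calls were at the edge of the threshold, and each was lost on leaving out any one of 11 of the 12 arrays involved.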

How the results depend on the processing

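The differences of Tnfsf11 and Csf1 between mOSM and control in WT cells at 6 h, and of Tnfsf11 between mOSM and the other ligands there, passed under each of the 14, 14 and 17 alternatives run. Their values ran from 2.94 (no background correction) to 4.91, from 1.18 to 1.37 and from 1.90 to 2.56. The KO minus WT difference of the mOSM effect on Tnfsf11 at 6 h did not pass without the filter on dim probes (-3.27, limma adjusted p = 0.079), and its 6 h minus 1 h difference in WT cells did not pass without that filter (3.18, 0.076) or with median scaling (3.18, 0.052). Leaving out 1 array gave -3.95 to -2.89 and 2.96 to 3.49 for these. It gave 1.06 to 1.54 for the 6 h minus 1 h difference of Csf1 and 0.91 to 1.24 for Csf1 with mOSM against the other ligands in WT cells at 6 h. With the culture as replicate block, 14 more differences passed. For Tnfsf11 against control these were 1.47, 2.60 and 2.61 (KO 6 h, mOSM, hOSM, mLIF), 1.67 and 1.49 (KO 1 h, hOSM, mLIF), 2.50 and 2.17 (WT 6 h, hOSM, mLIF) and 1.56, 2.13 and 1.83 (WT 1 h). The others were -1.13 for mOSM against the other ligands in KO cells at 6 h, 0.88 for Tnfrsf11b with mOSM in WT cells at 6 h, and -1.17 (KO minus WT) and 1.32 (6 h minus 1 h) for the mOSM effect on Csf1. That term changed no other call of a member, and the beadchip as a random block, the deposited log2 values and the filter of 24 arrays changed none. With only the compared groups in the fit 7 more passed, namely 2.50, 2.17, 2.13, 1.83, 0.88, -1.17 and 1.32 from that list, and without KO culture 3, an alternative chosen after seeing the data, Tnfsf11 with hOSM (2.19) and mLIF (2.11) in KO cells at 6 h. With no background correction the balance kept its sign and shrank, to 0.15, 0.66 and 0.70 in KO cells at 6 h (mOSM, hOSM, mLIF), 0.12, 0.65 and 0.61 in KO cells at 1 h, 2.14, 0.70 and 0.68 in WT cells at 6 h and 0.74, 1.16 and 0.77 in WT cells at 1 h, since that setting leaves the background in the dim Tnfsf11 signal. Among member differences with no call in any fit, 26 values in 22 of 102 results changed sign under the alternatives other than leaving out 1 array, none above 0.43 in size, and 150 values in 57 results did on leaving out 1 array, up to 1.14. Counts over all genes moved by over 1.5 times with the culture term, for example 4858 genes against 2956 with mOSM in WT cells at 6 h, 751 against 89 with hOSM and 847 against 99 with mLIF in KO cells at 6 h, and with only the compared groups 0 against 89 and 0 against 99. On leaving out 1 array they also moved, for example to 26 to 41 with hOSM and 24 to 38 with mLIF in WT cells at 6 h, against 71 and 50. No member has another probe, so that alternative was not run, and the culture term gives no value for KO against WT levels.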
